A study of Mus musculus with 4 samples.

Results

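Expression of 10 lung endothelial identity genes was examined in mouse lungs carrying 4T1 triple-negative breast cancer (TNBC) metastases, after saline or after the ADC/cmLumiOpto combination. The genes were taken by symbol from the deposited table of read counts, and all 10 were found among its 56748 genes: Pecam1, Cdh5, Car4, Ednrb, Gpihbp1, Plvap, Vwf, Tmem100, Calcrl and Ace. Each of the 10 passed the filter on low counts and was tested among 15320 genes. The comparison rests on 2 saline and 2 ADC/cmLumiOpto libraries, whereas the methods of the study give 4 samples per group. All mice were BALB/cJ females, 7 weeks old when they received 4T1-FLuc cells, a luciferase-marked mouse TNBC line, through the tail vein, so the controls also carried metastases. The labels call the control PBS where the titles say saline. The treated mice received CD276-DM1, an antibody against CD276 coupled to the microtubule inhibitor mertansine, together with cmLumiOpto, a light-gated mitochondrial channel delivered as gene therapy, and lungs were taken after 3 weeks of treatment. The labels give 16 mg/kg of the conjugate and write the treatment as "cmLumi-Olap & CD276-DM1", whereas the methods give 8 mg/kg. The labels also describe 4T1 tumor cells, but RNA of normal lung was present in the libraries. Sftpc, a surfactant protein, was at 595.5 and 3873 CPM on average in the saline and treated groups. CPM is the read count scaled by the TMM-adjusted library size. Krt8, a simple-epithelial keratin listed here with the tumor cell markers but not specific to them, was at 1342 and 1124 CPM. In such bulk RNA, fewer cells of a type and less RNA per cell cannot be told apart.

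Endothelial cells line the vessels, and in the lung most of them form the capillary mesh around the alveoli. Pecam1 and Cdh5 mark endothelium of every vessel type, whereas Car4 and Ednrb are used as markers of the aerocyte, the large alveolar capillary cell specialized for gas exchange, and Gpihbp1 and Plvap of the general capillary cell. Vwf is strongest in larger vessels, and Tmem100, Calcrl and Ace are enriched in lung endothelium relative to that of many other organs.

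Promoter windows from RefSeq (GRCm38.p6) were at hand for 4 of the 10 genes, and the 250 bases before the start are shown for each because they include genes with larger (Car4, Calcrl) and smaller (Ednrb, Ace) differences among the 10. Capitals mark the core letters bound by ETS factors, the family of ERG and FLI1, searched as AGGAAG and CGGAAG on both strands. Such a string was present in 39.2% of all 32851 windows of this length.
Car4, chr11:84957504-84957753, plus strand: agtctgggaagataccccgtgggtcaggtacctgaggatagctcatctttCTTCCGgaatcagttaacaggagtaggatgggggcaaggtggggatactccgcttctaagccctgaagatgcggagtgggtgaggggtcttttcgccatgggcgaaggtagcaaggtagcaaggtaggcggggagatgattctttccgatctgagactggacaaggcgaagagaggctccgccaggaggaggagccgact
Calcrl, chr2:84425267-84425516, minus strand: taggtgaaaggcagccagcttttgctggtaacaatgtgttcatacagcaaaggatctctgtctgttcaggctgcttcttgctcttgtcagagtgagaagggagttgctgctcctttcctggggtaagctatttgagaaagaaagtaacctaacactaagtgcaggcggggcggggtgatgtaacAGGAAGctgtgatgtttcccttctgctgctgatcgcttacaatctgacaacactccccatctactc
Ednrb, chr14:103843702-103843951, minus strand: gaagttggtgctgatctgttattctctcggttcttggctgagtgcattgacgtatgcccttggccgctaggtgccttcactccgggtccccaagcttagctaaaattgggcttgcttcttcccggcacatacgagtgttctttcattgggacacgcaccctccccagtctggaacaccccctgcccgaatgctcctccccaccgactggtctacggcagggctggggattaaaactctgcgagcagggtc
Ace, chr11:105967698-105967947, plus strand: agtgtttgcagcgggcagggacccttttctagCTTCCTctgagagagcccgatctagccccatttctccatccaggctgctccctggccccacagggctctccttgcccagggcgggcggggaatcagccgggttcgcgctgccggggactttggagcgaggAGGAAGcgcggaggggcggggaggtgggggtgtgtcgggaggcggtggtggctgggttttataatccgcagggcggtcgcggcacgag
The strings numbered 1 in the Car4 window, 1 in the Calcrl window, 0 in the Ednrb window and 2 in the Ace window. A further Ace window farther downstream, not shown, held 0. The Calcrl string lay 60 bases before the start, the nearest Ace string 82 bases before it and the Car4 string 194 bases before it. Letters read by GATA factors (AGATAA or TGATAA, present in 16.6% of all windows) and by KLF factors (CCACCC, present in 28.1%) were in none of these 4 windows, which says only that these letters are not in the 250 bases.

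The fitted difference was positive for all 10 genes, against 52% of all tested genes, but its size ran from 4.37-fold for Car4 to 1.01-fold for Cdh5. The median log2 fold change (log2FC, treated over saline) of the 10 genes was 0.76, beside 0.03 for all tested genes. A log2FC of at least 1 was found for 5 of the 10 genes and for 9.31% of all genes. The quasi-likelihood test of edgeR, after Benjamini-Hochberg adjustment, left 0 of the 10 genes, and 0% of all genes, with an adjusted p under 0.05. At an unadjusted p under 0.05, Car4, Gpihbp1, Vwf, Tmem100 and Calcrl were higher, 5 of 10 genes against 11% of all genes, and 0 were lower, against 12.2%. In either direction 3553 genes, or 23.2%, were below that level. Both treated libraries lay above both saline libraries for 7 of the 10 genes, against 28.1% of all genes, and below them for 0, against 28.8%, while Cdh5, Plvap and Ace overlapped between the groups. DESeq2 gave 4 of the 10 genes (Car4, Gpihbp1, Vwf and Tmem100) an adjusted p under 0.05 as higher and 0 as lower, against 4.28% and 5.72% of all genes, with 1353 genes called in all. The edgeR exact test gave 3 of the 10 genes (Car4, Gpihbp1 and Tmem100) as higher and 0 as lower, against 3.84% and 3.62% of all genes, with 1143 genes called in all. Without ADC/cmLumiOpto replicate 2, the library with the highest level of 9 of the 10 genes, Car4 had a log2FC of 1.76. Gpihbp1, Vwf, Tmem100 and Calcrl were then at 1.04, 0.69, 1.21 and 1.32, Cdh5 at -0.33 and Ace at -0.066.

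**Figure D1:**
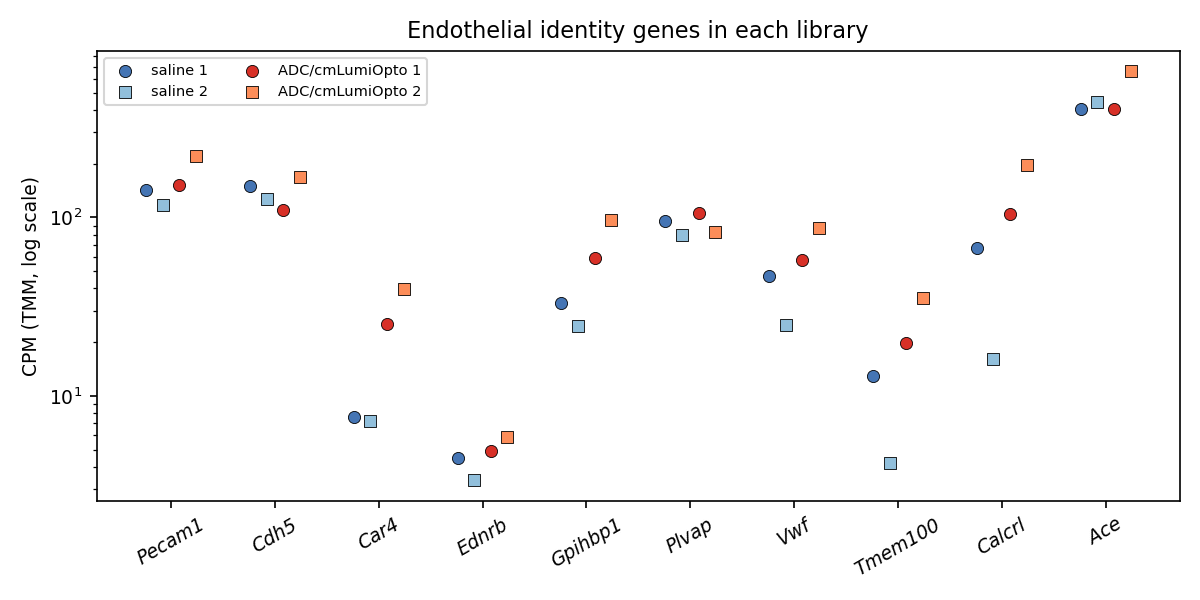
CPM of the 10 endothelial genes in each library, on a logarithmic axis; each point is 1 library, blue for saline and red or orange for ADC/cmLumiOpto, circles for replicate 1 and squares for replicate 2. The treated points of Car4 (25.1 and 39.45 CPM) lie well above the saline points (7.56 and 7.21 CPM), whereas those of Cdh5, Plvap and Ace overlap.

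Among the 4 capillary markers of the 10 genes (Car4, Ednrb, Gpihbp1 and Plvap), Car4 differed most and Plvap least. Car4 (ENSMUSG00000000805, chr11:84848612-84856870 as listed with the counts, for which the labels name mm39) encodes a carbonic anhydrase on the luminal face of alveolar capillaries, where it speeds the interconversion of bicarbonate and carbon dioxide. It was at 7.56 and 7.21 CPM in the saline libraries and at 25.1 and 39.45 CPM after ADC/cmLumiOpto. The saline libraries lay close together and both treated libraries far above them, a log2FC of 2.13 (standard error, SE, 0.28, edgeR adjusted p = 0.116). Leaving out each library in turn put this value between 1.76 and 2.42. Gpihbp1 (ENSMUSG00000022579, chr15:75468477-75471330) carries lipoprotein lipase to the capillary lumen. It was at 33.2 and 24.5 CPM in the saline libraries and 59.3 and 97.2 CPM in the treated libraries, again without overlap, a log2FC of 1.44 (SE 0.28, edgeR adjusted p = 0.116) that stayed between 1.04 and 1.76. Ednrb, the endothelin receptor that labels the same cell as Car4, was the lowest of the 10 genes, with 72 and 50 counts in the saline libraries and 87 and 121 in the treated ones. Its log2FC was 0.46 (SE 0.36, edgeR adjusted p = 0.472), so the aerocyte markers Car4 and Ednrb had unequal estimates, although the difference between these was not tested. Plvap (ENSMUSG00000034845, chr8:71950409-71964396), which forms the diaphragms of fenestrae and caveolae, was at 95.2 and 79.7 CPM after saline and 106 and 82.6 CPM after treatment. The groups overlapped, with a log2FC of 0.11 (SE 0.20, edgeR adjusted p = 0.769) that was -0.19 once the trend of the counts on gene length was removed.

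Other capillary genes gave mixed values. Of 11 further aerocyte genes tested, 3 were higher and 2 lower at an unadjusted p under 0.05, with a median log2FC of 0.27. Nckap5 (log2FC 1.88, SE 0.46) and Prx, a periaxin scaffold of lung capillaries (1.31, SE 0.37), were higher, whereas Apln, the ligand apelin, was lower (-0.65, SE 0.20). Itga3, the other lower gene, was at 1528 and 1101 CPM on average (-0.47, SE 0.17). Cdh5, which marks all endothelium, was at 137.8 and 139.5 CPM, so the RNA of Itga3 cannot be read as that of aerocytes alone. The apelin receptor Aplnr, a general capillary gene, had counts of 399 and 123 after saline and 350 and 333 after treatment. Of 10 further general capillary genes, 3 were higher and 0 lower at that level, with a median of 0.37. Sema3c, a secreted semaphorin, went from 12.5 ± 6.17 CPM (SD, n = 2) to 75.0 CPM on average, a log2FC of 2.58 (SE 0.43). Tek, the angiopoietin receptor TIE2, had a log2FC of 1.41 (SE 0.38). Kit and Cd93, also of that list, had log2FC values of 0.10 and -0.24. The smallest adjusted p among these genes was 0.116 in edgeR's quasi-likelihood test.

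Pecam1 and Cdh5, the pan-endothelial pair, differed from each other. Pecam1 (ENSMUSG00000020717, chr11:106545043-106641454) encodes CD31, an adhesion molecule of endothelial junctions that platelets and leukocytes also carry. It was at 143 and 117 CPM after saline and at 153 and 220 CPM after treatment. The treated libraries were above both controls by a small margin for replicate 1, and the log2FC was 0.52 (SE 0.23, edgeR adjusted p = 0.231). Cdh5 (ENSMUSG00000031871, chr8:104828257-104871143) encodes VE-cadherin, the adhesion protein of endothelial adherens junctions. It was at 149 and 126 CPM after saline and at 110 and 169 CPM after treatment, so that the 2 treated libraries were the lowest and the highest of the 4. The log2FC was 0.02 (SE 0.24, edgeR adjusted p = 0.975), and it was -0.33 without ADC/cmLumiOpto replicate 2 and 0.30 without ADC/cmLumiOpto replicate 1.

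The 28 other pan-endothelial genes divided in the same manner. All were tested, 21 had a positive and 7 a negative log2FC, and the median was 0.45. At an unadjusted p under 0.05, 12 were higher (against 11% of all genes) and 0 lower. The 12 included Thbd, encoding the anticoagulant thrombomodulin (29.1 and 83.4 CPM on average, log2FC 1.52, SE 0.23), Egfl7, a secreted endothelial factor (1.57, SE 0.27), and Esam, an endothelial junction molecule (1.03, SE 0.18), all at an edgeR adjusted p of 0.116. Cldn5, the main endothelial claudin, had counts of 812 and 502 after saline and 1407 and 2854 after treatment, a log2FC of 1.37 (SE 0.32, edgeR adjusted p = 0.121). Against these stood the VEGF receptor gene Kdr, with 62.6 and 55.6 CPM on average (log2FC -0.17, SE 0.18), and Eng, the TGF-β co-receptor endoglin, with 162.6 and 163.0 CPM (0.004, SE 0.16). Tie1, an orphan receptor of the TIE family, had a log2FC of 0.36 (SE 0.20). Leaving out each library in turn put the log2FC of Thbd between 1.30 and 1.81 and that of Cldn5 between 0.91 and 1.73. Tie1 then lay between 0.15 and 0.56, and Kdr between -0.30 and -0.044.

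**Figure D2:**
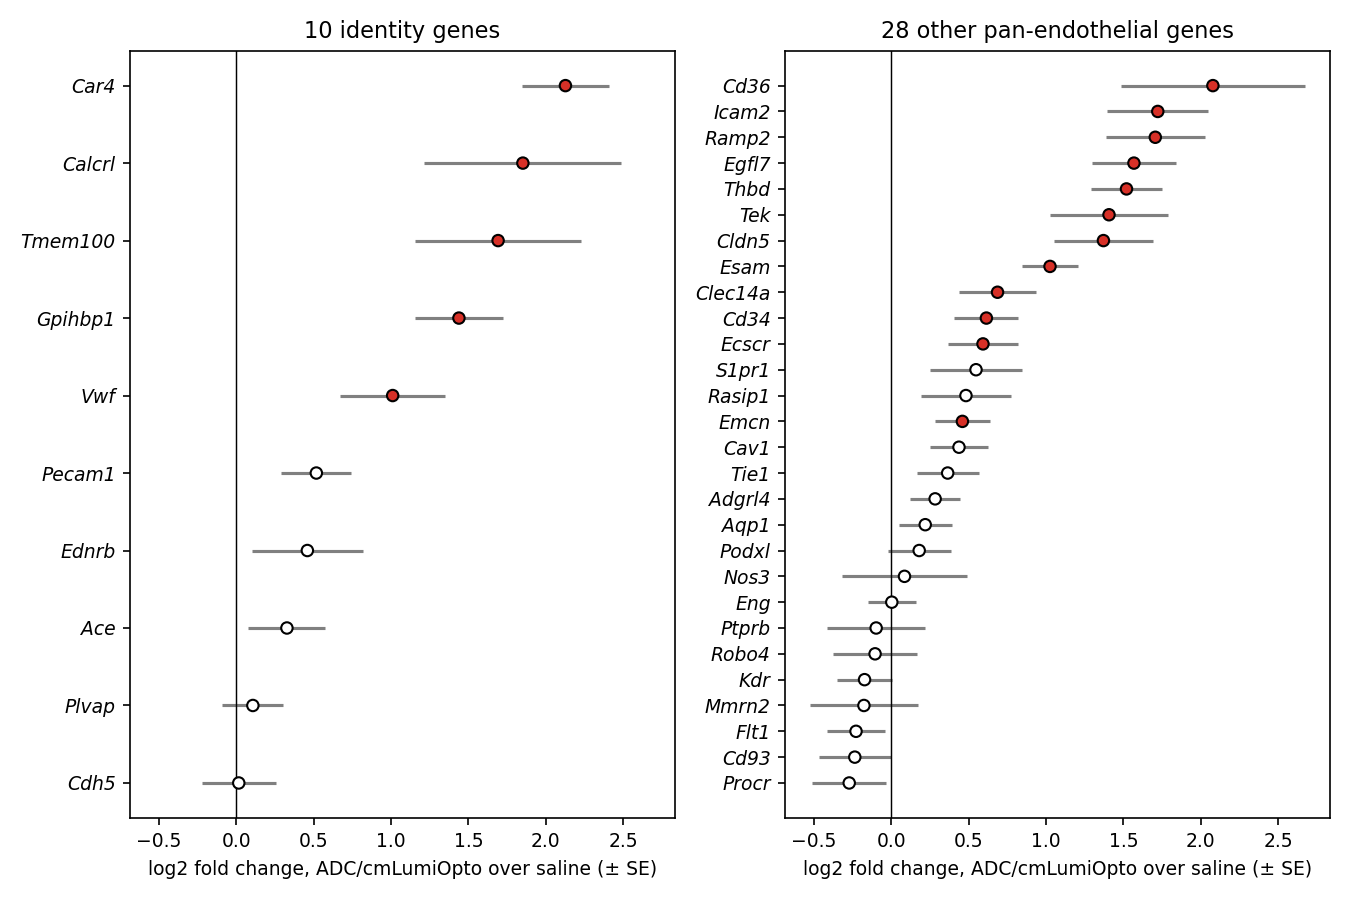
Log2 fold change (log2FC), ADC/cmLumiOpto over saline, with its standard error as a bar, for the 10 identity genes (left) and 28 other pan-endothelial genes (right); filled red points have an unadjusted p under 0.05 in edgeR's quasi-likelihood test. In both panels the genes run from values near 2 (Car4 at 2.13, Cd36 at 2.08) to values near 0 (Cdh5 at 0.02, Eng at 0.004).

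Among 20 transcription factor genes listed for endothelium, 17 had a positive log2FC, with a median of 0.74, and 5 were higher at an unadjusted p under 0.05. The ETS factors of the list differed in sign, with 0.40 for Erg (SE 0.22), 0.18 for Fli1 (SE 0.24) and -0.45 for Ets1 (SE 0.22), the lowest value of the 20. Hey1, a NOTCH target of arterial cells, was at 3.81 CPM on average after saline and 12.2 CPM after treatment (log2FC 1.68, SE 0.42). Tcf21, a factor of lung mesenchyme although it is counted in this list, had a log2FC of 2.21. Foxf1, which lung mesenchyme also expresses, had a value of 1.07. Of 16 further junction genes, 4 were higher and 5 lower at that level, with a median of -0.15. Icam2, an endothelial adhesion molecule, was higher (1.72, SE 0.33) and Vcl, the actin linker vinculin found in most adherent cells, was lower (-1.16, SE 0.18).

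Vwf (ENSMUSG00000001930, chr6:125523737-125663642) encodes von Willebrand factor, the platelet-tethering protein stored in Weibel-Palade bodies. It was at 46.9 and 24.9 CPM after saline and at 57.8 and 87.0 CPM after treatment. The treated libraries lay above both controls, with saline replicate 1 and ADC/cmLumiOpto replicate 1 nearest to each other, and the log2FC was 1.01 (SE 0.34, edgeR adjusted p = 0.159). Without saline replicate 2 the value was 0.64. Megakaryocytes and platelets also contain Vwf, and the summed CPM of 9 platelet markers, 7 of which were tested, was 44.4 and 64.2 after saline and 49.8 and 60.6 after treatment. Of these 7 markers 2 were higher and 0 lower at an unadjusted p under 0.05, and the median log2FC was 0.76. The higher markers were Ppbp, a platelet chemokine (2.24, SE 0.55), and Itga2b, the platelet integrin (1.08, SE 0.43). Ppbp had 12 and 6 counts after saline and 43 and 63 after treatment. Gp9 had a value of 2.52 (SE 1.08), with 5 and 0 counts after saline and 11 and 26 after treatment. Itgb3 and Gp1ba had negative values of -0.32 (SE 0.19) and -0.28 (SE 0.55). Pf4, platelet factor 4, had 120 and 349 counts after saline and 255 and 341 after treatment (0.005, SE 0.50). The part of platelets in the Vwf difference was not tested. Genes for other cargo of this granule were divided, 7 of the 11 further genes of the granule and its release with a positive and 4 with a negative log2FC, at a median of 0.062. Edn1, Cd63 and Igfbp7 had log2FC values of 1.15, 0.33 and 0.20. Selp, P-selectin, was lower (24.3 and 16.9 CPM on average, log2FC -0.53, SE 0.21), and Angpt2, the TIE2 antagonist angiopoietin 2, had a value of -0.18 (SE 0.31). Of these 11 genes, 0 were higher and 3 lower at an unadjusted p under 0.05. The lower genes included Selp and Plat, the tissue plasminogen activator gene (-1.17, SE 0.31).

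Genes of the larger vessels were divided as well. Of 12 arterial genes, 3 were higher and 3 lower at an unadjusted p under 0.05, with a median log2FC of 0.75. The higher genes were Hey1, Gja4 (log2FC 1.67, SE 0.63) and Bmx (2.22, SE 0.74). Gja5, the arterial connexin 40, was not among them, with counts of 111 and 46 after saline and 275 and 143 after treatment (1.16, SE 0.53). The lower genes included Fbln2, encoding the matrix protein fibulin 2 (-1.49, SE 0.18), and Dkk2, a secreted WNT modulator (-1.11, SE 0.29), both of which fibroblasts also express. Of 10 further venous genes, 2 were higher and 2 lower, with Bst1 at 1.48 and Car8 at 2.41, while the venous regulator Nr2f2 was at 24.1 and 23.8 CPM on average (log2FC -0.018, SE 0.19). Of 9 lymphatic genes, 1 was higher at that level. This was Lyve1, a hyaluronan receptor shared with some macrophages (0.58, SE 0.17). Pdpn and Sema3a of the same list had values of 0.53 (SE 0.31) and -0.37 (SE 0.26). Prox1, the lymphatic master regulator, had 15 and 3 counts after saline and 11 in each treated library, too few to show a difference at this depth.

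Genes associated with activated endothelium gave no common direction, whereas more of the tumor endothelium genes were lower than higher. Of 7 activation genes tested, 2 were higher and 3 lower at an unadjusted p under 0.05. Ccl2, a monocyte chemokine, and Icam1, a leukocyte adhesion molecule, had log2FC values of 1.498 and 1.13, and both are made by many cell types. Sele, E-selectin, which is restricted to activated endothelium, had 61 and 30 counts after saline and 18 and 15 after treatment (-1.74, SE 0.55, edgeR adjusted p = 0.147). Of 11 tumor endothelium genes other than Plvap, 1 was higher and 5 lower, against 11% and 12.2% of all genes, with a median of -0.41. Nid2, a basement membrane nidogen, was at 30.7 and 14.6 CPM on average (-1.07, SE 0.28), and Trp53i11 had a value of -0.57 (SE 0.16).

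Calcrl (ENSMUSG00000059588, chr2:84160970-84255755) encodes the receptor shared by CGRP and adrenomedullin, whose ligand preference is set by the RAMP accessory proteins. It was at 67.6 and 16.1 CPM after saline and at 105 and 198 CPM after treatment. All 4 libraries were far apart, with saline replicate 1 at 4.19 times saline replicate 2. The log2FC was 1.85 (SE 0.64, edgeR adjusted p = 0.165), and it was 1.18 without saline replicate 2 and 3.23 without saline replicate 1. Ramp2, the partner that makes the adrenomedullin receptor of endothelium, was at 18.4 CPM on average after saline and 60.1 CPM after treatment (1.71, SE 0.32, edgeR adjusted p = 0.116). Ramp3 was lower in level, with 28 and 17 counts after saline and 59 and 68 after treatment (1.19, SE 0.45), and Ramp1, the CGRP receptor partner, had a value of 0.62 (SE 0.35). The ligand genes Adm and Calca overlapped between the groups. Adm, adrenomedullin, had counts of 257 and 109 after saline and 72 and 289 after treatment, and Calca, the CGRP gene, had 42 and 39, then 26 and 131. Calcb, the other CGRP gene, had 14 and 10 counts after saline and 23 and 30 after treatment, without overlap (0.83, SE 0.54, edgeR adjusted p = 0.384). Over the 7 other tested genes of this axis, 2 were higher and 0 lower at an unadjusted p under 0.05, with a median of 0.62.

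Ednrb (ENSMUSG00000022122, chr14:104052061-104081838) encodes the endothelin B receptor, which clears endothelin and releases nitric oxide in endothelium. Its levels were 4.50 and 3.37 CPM after saline and 4.93 and 5.90 CPM after treatment. ADC/cmLumiOpto replicate 1 was just above the higher control, by less than the gap between the 2 controls. Replicate 2 lay above that control by more than this gap. The vasoconstrictor ligand gene Edn1 had 83 and 96 counts after saline and 111 and 399 after treatment (log2FC 1.15, SE 0.53), and the high value came from 1 library. Ednra, the contractile receptor of smooth muscle, was at 14.0 and 12.6 CPM on average (-0.16, SE 0.35). Edn3 had 15 and 1 counts, then 36 and 30 (1.76, SE 0.92), and Edn2 had 0 counts in all 4 libraries, where 3 counts, the floor used here for counting error only, correspond to 0.152 to 0.197 CPM. Of the 5 other tested genes of the axis, 0 were higher and 2 lower at an unadjusted p under 0.05. These were Ece1, the endothelin-converting enzyme (198.6 and 135 CPM on average, -0.56, SE 0.17), and the related Ecel1, with 40 and 46 counts after saline and 0 and 5 after treatment.

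Ace (ENSMUSG00000020681, chr11:105858771-105880790), the angiotensin-converting enzyme of the capillary surface, was the most abundant of the 10 genes. It was at 403 and 445 CPM after saline and at 405 and 660 CPM after treatment. ADC/cmLumiOpto replicate 1 lay between the controls and replicate 2 far above them, and the log2FC was 0.33 (SE 0.25, edgeR adjusted p = 0.460). It was -0.066 without ADC/cmLumiOpto replicate 2. Enpep, the aminopeptidase of angiotensin II, had a value of 1.36 (SE 0.46), and Atp6ap2, the prorenin receptor, of 0.46 (SE 0.16). The receptor gene Agtr1a had 28 and 17 counts, then 24 and 62 (0.60, SE 0.58). Agt, the precursor, was at 0 and 1 counts after saline and 5 and 12 after treatment and was not tested. Of 5 other tested genes of this axis, 3 were higher at an unadjusted p under 0.05 and 0 lower.

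Tmem100 (ENSMUSG00000069763, chr11:89921174-89927334) encodes a small membrane protein induced by BMP9 and BMP10 through the endothelial receptor ALK1. It was at 12.9 and 4.18 CPM after saline and at 19.8 and 35.4 CPM after treatment. The libraries of each group were far apart but did not overlap between groups, a log2FC of 1.69 (SE 0.54, edgeR adjusted p = 0.148) that was 2.72 without saline replicate 1 and 1.12 without saline replicate 2. Acvrl1, the ALK1 gene, was at 37.7 CPM on average after saline and 80.0 CPM after treatment (1.08, SE 0.38). The targets Id1 and Id3 had log2FC values of 0.66 (SE 0.21) and 0.93 (SE 0.32). Id2 had a value of -0.022 (SE 0.23), Smad7 of -0.47 (SE 0.20) and the receptor gene Bmpr2 of -0.36 (SE 0.23). Smad1 and Smad5, the transducers, which most cell types express, had values of -0.95 (SE 0.19) and -0.50 (SE 0.17). The circulating ligands are made elsewhere in the body, and Gdf2 (BMP9) and Bmp10 had at most 9 and 2 counts in any library. Over the 12 other tested genes of the axis 3 were higher and 2 lower at an unadjusted p under 0.05, with a median of -0.009.

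Lipid uptake genes beside Gpihbp1 were higher or without a clear difference. Lpl, the lipase that GPIHBP1 binds, had counts of 450 and 138 after saline and 571 and 1413 after treatment (1.43, SE 0.55). Angptl4, an inhibitor of that lipase, was at 10.99 and 30.58 CPM on average (1.47, SE 0.28), and Cd36, a fatty acid transporter of capillaries and macrophages, at 29.4 and 124 CPM (2.08, SE 0.60). Of 9 other tested genes in this group these 3 were higher at an unadjusted p under 0.05 and 0 were lower, with a median of 0.40 and Fabp4, a fatty acid carrier of capillaries, at 0.088. Among 7 further carbonic anhydrase genes tested, 1 was higher (Car8) and 2 lower at that level. The lower genes were the hypoxia-induced, tumor-associated Car9 (-0.76, SE 0.19) and Car12 (-1.02, SE 0.22), whereas Car2, the cytosolic enzyme of erythrocytes, had a value of 0.69 (SE 0.32).

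**Figure D3:**
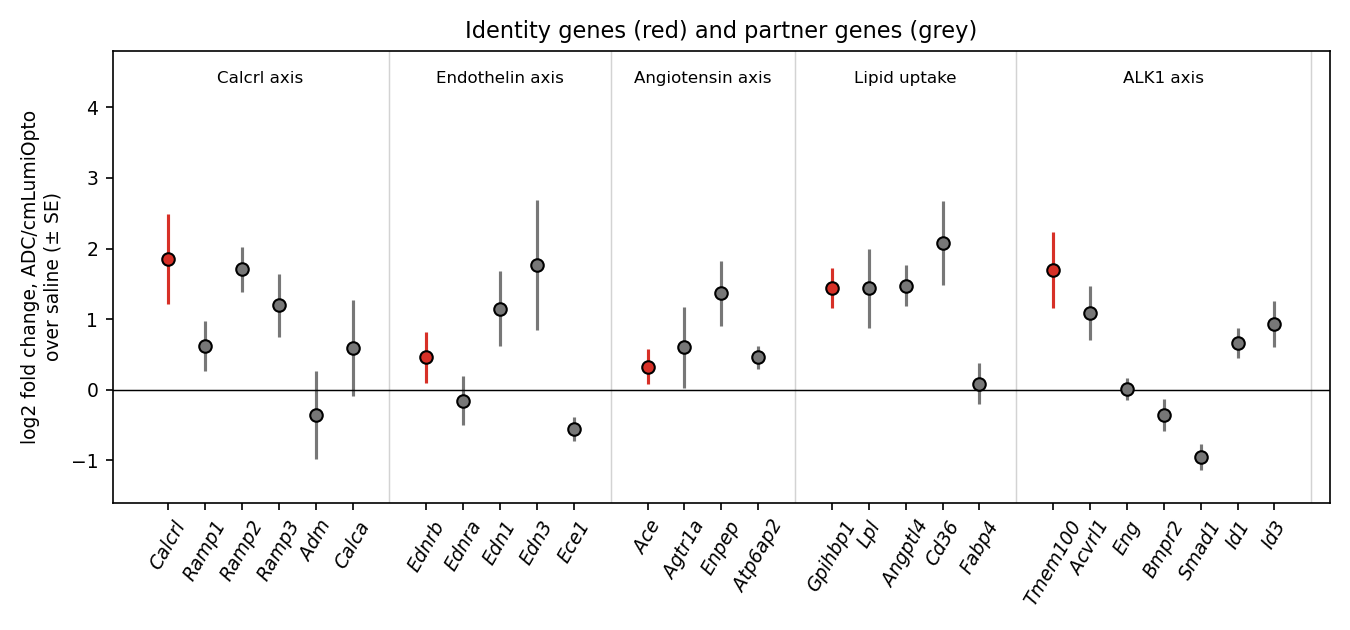
Log2 fold change (log2FC), ADC/cmLumiOpto over saline, with its standard error as a bar, for 5 of the identity genes (red) and genes of their pathways (grey). Calcrl (1.85), Ramp2 (1.71), Acvrl1 (1.08) and the ligand genes Edn1 (1.15) and Edn3 (1.76) lie above 0. Eng (0.004) lies near 0, Bmpr2 (-0.36) lies below it, and the bars of Adm and Ednra span 0.

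To show whether the genes differed among themselves within a library, each was expressed as its log2 CPM minus the mean log2 CPM of Pecam1 and Cdh5. Relative to that pair, Car4 was at -4.15 ± 0.14 (SD, n = 2) after saline and -2.32 ± 0.054 (SD, n = 2) after treatment, a difference of 1.83. Gpihbp1 went from -2.22 ± 0.12 (SD, n = 2) to -1.06 ± 0.098 (SD, n = 2), a difference of 1.16. In these 2 genes the libraries of a group lay close together and the groups did not overlap, so the spread in the plain CPM of Car4 and Gpihbp1 between the treated libraries was shared with Pecam1 and Cdh5. Calcrl, Tmem100 and Vwf differed by 1.87, 1.59 and 0.81, also without overlap, but with saline SDs of 1.27, 0.94 and 0.45. Ednrb, Plvap and Ace differed by 0.21, -0.14 and 0.042 and overlapped. Pecam1 minus Cdh5 was itself -0.060 and -0.11 after saline and 0.47 and 0.38 after treatment. With 2 libraries against 2, the exact two-sided permutation test cannot give a p under 0.333, and that value was reached by Car4, Gpihbp1, Calcrl, Tmem100, Vwf and Pecam1 minus Cdh5. With the 28 other pan-endothelial genes as the reference, the differences were 1.49 for Car4 and 0.83 for Gpihbp1, and they were -0.12 for Ednrb and -0.29 for Ace.

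**Figure D4:**
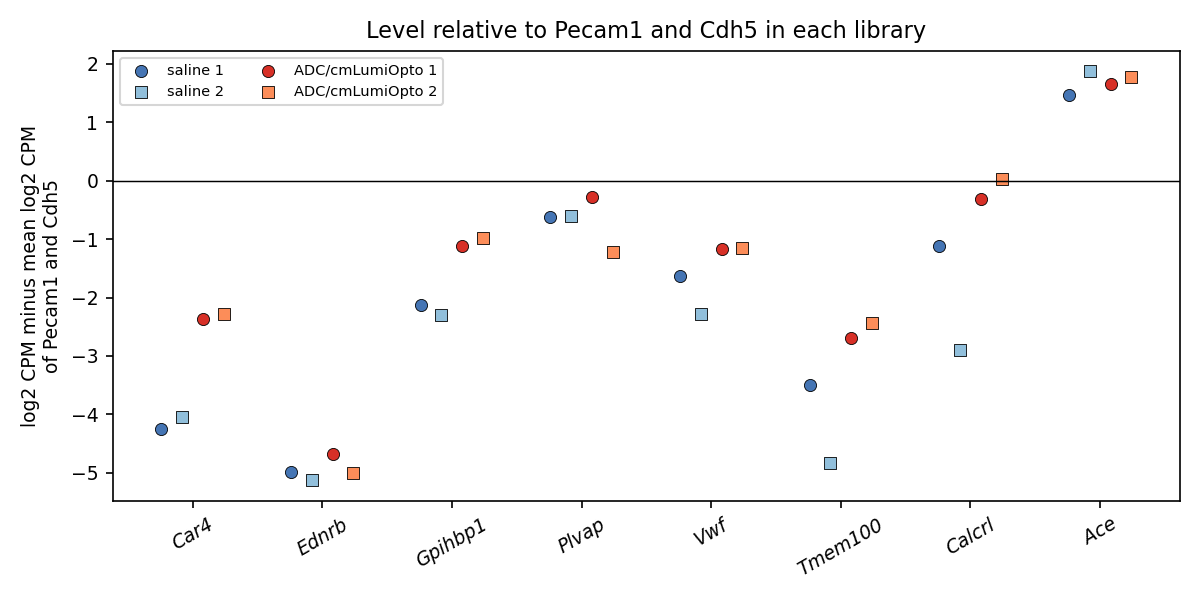
Log2 CPM of 8 identity genes minus the mean log2 CPM of Pecam1 and Cdh5 in each library; blue points are saline, red and orange points ADC/cmLumiOpto, and 0 is the level of the pair. Car4 sits near -4.15 after saline and -2.32 after treatment with little spread, whereas the saline points of Calcrl and Tmem100 are wide apart and those of Ace and Ednrb overlap between groups.

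Levels of different genes were compared per length, as CPM divided by the gene length in kilobases (RPKM). After saline the order was Ace (80.2 ± 5.57 RPKM, SD, n = 2), Plvap (44.0), Cdh5 (32.8), Pecam1 (20.9), Gpihbp1 (11.3), Calcrl (8.57), Tmem100 (4.83), Car4 (3.76), Vwf (2.24) and Ednrb (0.922). The libraries of neighbors overlapped from Gpihbp1 through Calcrl and Tmem100 to Car4, and these neighbors were not separated in level. After ADC/cmLumiOpto, Ace (101 RPKM), Plvap (47.5) and Cdh5 (33.2) were again highest. Calcrl (30.96), Gpihbp1 (30.6) and Pecam1 (29.9) followed, with libraries that overlapped from Cdh5 through these 3 genes, then Car4 (16.4) and Tmem100 (15.6), which also overlapped, and Vwf (4.51) and Ednrb (1.27) stayed lowest. On this scale Car4 thus stood at 3.76 RPKM against 32.8 RPKM of Cdh5 after saline, and at 16.4 against 33.2 RPKM after treatment.

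The mean profile of the 10 genes over the 4 libraries, as log2 CPM centered on each gene's mean, was -0.18 and -0.80 in the saline libraries and 0.22 and 0.76 in the treated libraries. Among 9865 genes with at least 10 CPM on average that were in none of the lists, the 5 with the smallest root mean square distance from it were Niban1 (0.024 on the log2 scale), Arhgef26 (0.061), Tmem38b (0.063), Stard8 (0.067) and Ccr1 (0.070). Niban1 was at 22.3 and 14.1 CPM after saline and 29.1 and 43.7 CPM after treatment. With 4 libraries, such likeness describes the order of the libraries and no more. The profile is the mean of the same 10 genes, of which 9 were highest in ADC/cmLumiOpto replicate 2 and 8 were lowest in saline replicate 2. The share of all tested genes with these libraries highest and lowest was not counted.

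Markers of other cell types also differed between these libraries. The summed CPM of the 10 identity genes was 964 and 848 after saline and 1045 and 1594 after treatment. Ace, Cdh5, Pecam1 and Plvap, at 424, 138, 130 and 87.5 CPM on average after saline, made up most of this sum. Car4, Calcrl and Tmem100, at 7.39, 41.8 and 8.53 CPM, weighed less in it, although their log2FC values were 2.13, 1.85 and 1.69. Alveolar type 1 markers, 7 of 8 higher at an unadjusted p under 0.05, summed to 369 and 150 CPM after saline and 957 and 899 CPM after treatment. The 8 alveolar type 2 markers, 7 of them higher, summed to 1713 and 459 CPM, then 5782 and 4994 CPM, and the 6 airway markers, all higher, to 1150 and 80.5 CPM, then 6202 and 2957 CPM. Saline replicate 2 was the lowest library in each of these lists, as it was for most of the endothelial genes. Fibroblast markers, 5 of 8 lower and 1 higher, summed to 3725 and 2508 CPM, then 1132 and 1013 CPM. The 8 tumor cell markers, 2 lower, summed to 3111 and 3453 CPM, then 3019 and 2944 CPM. The lower ones were Cd276, the target of the conjugate (log2FC -0.63, SE 0.17), and Krt14 (-0.62, SE 0.24), while 3 of the 8 had a positive log2FC. This list includes general epithelial genes such as Krt8, so its sum cannot be read as tumor content alone. Mural cell markers, 3 of 10 higher and 2 lower, summed to 269 and 284 CPM, then 202 and 203 CPM. This sum rests mostly on the 2 lower genes, Acta2 (137 and 71.0 CPM on average, -0.95, SE 0.27) and Pdgfrb (78.6 and 52.7 CPM, -0.58, SE 0.20). The higher genes were Higd1b (1.71, SE 0.39), Cox4i2 (1.60, SE 0.39) and Rgs5 (1.16, SE 0.38), so the mural markers had no common direction. Leukocyte markers, 5 of 10 higher, summed to 3169 and 1885 CPM, then 5841 and 10020 CPM. Much of the last sum was S100a8 and S100a9, at 3089 and 3814 CPM in ADC/cmLumiOpto replicate 2 but 422 and 562 CPM in replicate 1. In replicate 1 Lyz2 was the largest part, at 4299 CPM. Of the 10 log2FC values 9 were positive, with Itgam at 0.15 and Csf1r at -0.042. Erythroid markers, 3 of 6 tested higher, summed to 1113 and 353 CPM, then 1875 and 2079 CPM. The 5 mesothelial markers, 1 lower, summed to 231 and 340 CPM, then 286.5 and 234 CPM. The part of the cell mixture in the differences of the endothelial genes was not tested. Total counts were 15263375 to 19675436 per library, and reads from mitochondrial genes made up 1.13% and 1.17% after saline and 2.09% and 1.84% after treatment.

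**Figure D5:**
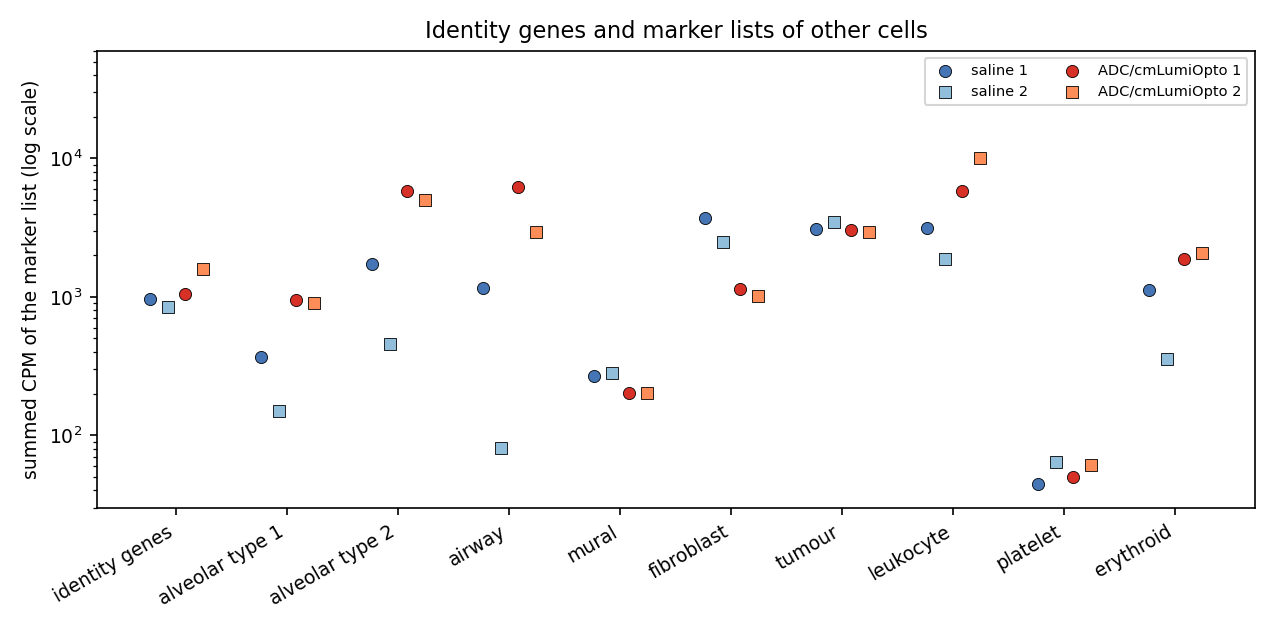
Summed CPM of the 10 identity genes and of marker lists of other cell types in each library, on a logarithmic axis; blue points are saline, red and orange points ADC/cmLumiOpto. The sums of the alveolar and airway lists differ between the groups by more than that of the endothelial genes, which runs from 848 to 1594 CPM. The endothelial sum is mostly that of its abundant genes Ace, Cdh5, Pecam1 and Plvap, and it hides the larger differences of Car4, Calcrl and Tmem100.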

How the data were processed

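Messenger RNA of 2 saline and 2 ADC/cmLumiOpto samples was sequenced on an Illumina instrument. The labels describe RNA from harvested tumor cells, and the methods describe dissociated lung tissue. The table deposited by the authors holds unnormalized read counts and the length of every gene. Per the methods and labels, reads were aligned with HISAT2, the labels name mm39 and the methods GRCm38, and the counting program is not given in the sources used here. Gene positions are those listed with the counts, and promoter windows are RefSeq GRCm38.p6. The library protocol describes kits with and without strand, so reads from antisense genes cannot be told apart.

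The main test used edgeR 4.0.16 under R 4.3.3, in these steps: filterByExpr (minimum count 10, minimum total 15), TMM, estimateDisp, glmQLFit and glmQLFTest, with Benjamini-Hochberg adjustment over 15320 genes and a threshold of 0.05. The standard error is the log2 fold change divided by the square root of F. Log2 CPM used a prior count of 2. DESeq2 1.42.0 and the alternatives of the closing section were also run, and the procedure was tested on simulated data. Groups came from sample titles. The methods call the samples biological, and p-values measure the spread between these samples only.

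The genes and lists were chosen with earlier results of these data known. Genes named are the 10 identity genes, the 3 tested genes with the smallest p of each endothelial or pathway list, fixed ligand and receptor partners, and the 5 nearest profiles, except that some genes this rule takes are not reported here. Krt8, Sftpc, Pf4, Calcb, Ets1, Cd63, Igfbp7, Kit, Cd93, Smad5, Car2 and Fabp4 were named after their values were seen. So were Cd276, Krt14, Itgb3, Gp1ba, Bmpr2, Id2 and Smad7. The same holds for Itga3, Gja4, Bmx, Higd1b, Cox4i2, Rgs5, Acta2, Pdgfrb, S100a8, S100a9, Lyz2, Csf1r and Itgam.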

Additional observations from a re-analysis of the deposited data

How the results depend on the processing

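Over 13 alternatives, the log2 fold changes of Car4, Gpihbp1, Vwf, Tmem100, Calcrl, Pecam1 and Ednrb stayed positive. The number of genes called, 0 in edgeR's quasi-likelihood test (3553 at an unadjusted p under 0.05), was 1353 with DESeq2, 1143 with the exact test, 2259 without the low-count filter, 607 with the replicate number as a block, and 0 to 206 with 1 library left out, highest without saline replicate 1. The number of the 10 genes called was 4, 3, 5 and 2 in the same order, and 0 to 3 with 1 library left out. Under the block these were Car4 and Gpihbp1. The fit without the filter tested 25563 genes and that with the block 15320, so their counts of called genes have different totals. Same-numbered libraries had deviations that correlated at 0.0985 over genes, and nothing in the labels pairs them, so they share only a number. The causes of these changes were not tested.

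With 1 library left out (the lone library was assumed to vary like the other group), 2 to 7 of the 10 genes and 6 to 14 of the 28 other pan-endothelial genes were higher at an unadjusted p under 0.05, and 0 to 1 of the latter lower. Over all tested genes and both directions, 1561 to 3591 were below that level in these fits, the lowest without saline replicate 2. With the length trend removed, 1 of the 28 was lower. Among the 10 identity genes, the genes named by rule from the endothelial and pathway lists and the fixed partners, 13 changed direction. Genes named after their values were seen, and markers of other cell types, were not followed through the alternatives. Cdh5 was at -0.011 under the block, -0.038 with the length trend removed and -0.33 to 0.30 with 1 library left out. Plvap was at -0.19 with the length trend removed and -0.074 to 0.28 with 1 left out. Eng was at -0.001 without the filter, -0.061 with the length trend removed and -0.051 to 0.077 with 1 left out, and Kdr at 0.014 with the length trend removed. Nr2f2 was at 0.030 without TMM, 0.065 with upper-quartile scaling, 0.020 with at least 10 counts in every sample, 0.009 for protein-coding genes, 0.16 with the length trend removed and -0.10 to 0.068 with 1 left out. With 1 left out, Ace was at -0.066 to 0.65, Ednra at -0.49 to 0.25, Adm at -1.52 to 0.31, Calca at -0.83 to 1.29, Agtr1a at -0.092 to 1.06, Angpt2 at -0.67 to 0.19, Aplnr at -0.45 to 1.12 and Prox1 at -0.67 to 1.49. Scaling moved the median of all genes by at most 0.084. Prox1, at 3 to 15 counts, is limited by depth.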
